A study of Mus musculus with 4 samples.

Results

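The cells described here carried messenger RNA of Eomes, a T-box transcription factor, among sorted cells of the Atoh1 lineage in the mouse cerebellum at E14.5 (embryonic day). They were picked out by counts of unique molecular identifiers (UMIs, each standing for 1 captured transcript). A cell had to hold at least 1 Eomes UMI and none of Tbr1 or Lmx1a. It could hold at most 2 Neurod1 UMIs, unless it held 2 or more Eomes UMIs. Its Meis2 count could not exceed its Pax6 count, and Ube2c, Cdc20, Ccnb1, Ccnb2, Cenpa and Cenpf, 6 genes of mitosis, could sum to no more than 2 UMIs. Of 12546 cells kept in 4 libraries, 1572 held an Eomes UMI and 568 met every limit; these 568 are called the gated cells below. They were proposed as early cells of the unipolar brush lineage, with Eomes and Otx2 as the markers. They were compared with 6870 reference cells, which held no Eomes UMI and at least 1 Pax6 UMI. The 12 genes of these limits (Pax6 among them) chose the cells, so their values are given as description and were not tested.

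Every embryo carried 1 copy of Atoh1-Cre and 1 copy of a tdTomato reporter at the Rosa26 locus that Cre switches on, and living cells were sorted by tdTomato. The 2 control libraries came from embryos with no other allele. The 2 En1/2 CKO (conditional knockout) libraries came from embryos in which En1 and En2, homeobox genes of the midbrain and hindbrain, were both flanked by lox sites on both copies. Cre under the control of Atoh1 deletes them in the Atoh1 lineage, and other cells of the embryo keep them. Animals were pooled for each library and the labels do not say how many, so the p-values rest on the spread between 2 pools a group.

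Eomes, also called Tbr2, is best known in the cerebellum as the marker of unipolar brush cells, small excitatory interneurons of the granular layer that amplify mossy fibre input. They arise from the rhombic lip, the germinal zone at the edge of the cerebellar plate that also gives rise to granule cells and, earlier, to excitatory neurons of the cerebellar nuclei. Lmx1a and Otx2 are expressed in the rhombic lip and in its unipolar brush progeny, and calretinin (Calb2) marks one type of the mature cells. Atoh1 drives the rhombic lip lineages, and granule cells then switch on Neurod1 as they leave the cell cycle.

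The kept cells numbered 2911 and 3931 in control replicates 1 and 2 and 2007 and 3697 in CKO replicates 1 and 2, from libraries of 14998150 to 33709450 UMIs. The CKO libraries were deeper: the gated cells had medians of 3299 and 2069 UMIs in control and 8115.5 and 10897 in CKO libraries, and the reference cells medians of 2909.5 and 2289 against 9316 and 7465.5. Depth and genotype cannot be told apart in this design. Haemoglobin RNA stood high in the reference cells of control replicate 2 and CKO replicate 1, where the erythroid list summed to 1152 and 1217 CPM, against 33.0 and 3.30 CPM in the other two. Each pair of libraries shared 1 to 6 barcodes. The top simulated-doublet scores held 11 of the 568 gated cells.

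The gated cells had few of the markers of unipolar brush cells. Otx2, the second marker of the proposed lineage, stood at 12.2 and 7.62 CPM (UMIs of a gene per 1000000 UMIs, summed over the cells of a library and scaled by TMM) in the gated cells of the controls and at 36.4 and 47.2 CPM in those of CKO. Reference cells of the same libraries had 27.8, 10.5, 23.2 and 35.8 CPM. The gated cells were below the reference cells in both controls and above them in both CKO libraries, and over the 4 libraries the log2 fold change was 0.12 (SE 0.20, adjusted p = 0.730 by edgeR's quasi-likelihood test with the library as block). Otx2 was detected in 70 of the 568 cells, against 710 of the 6870 reference cells. Its call depended on the reference: with reference cells held to the gate's own limits the log2 fold change was 0.94 and adjusted p = 0.00389 by edgeR. That comparison called 12.5% of genes higher and 10% lower. It capped Neurod1 at 2 UMIs in every reference cell, but not in gated cells with 2 or more Eomes UMIs. Otx2 was also called among cells of 3000 or more UMIs with no Neurod1 limit in either class (0.60, adjusted p = 0.0266 by edgeR). There the gated cells held 2 or more Eomes UMIs and the other limits applied to both classes. That comparison called 6.65% of genes higher and 5.71% lower.

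Calb2 gave no call either. It summed to 21 UMIs over all gated cells, at 3.82, 15.2, 6.71 and 2.75 CPM, beside 7.90, 40.5, 5.51 and 2.61 CPM in the reference (log2 fold change -0.56, SE 0.34, adjusted p = 0.273 by edgeR). The value for control replicate 2 stood above the others in both classes. Crx, a homeobox gene of a subset of unipolar brush cells, Sln and Grp were at 0 in the gated cells of every library. Crx and Sln were at 0 in the reference cells of every library too, so they do not separate the classes. Phospholipase C beta 4 (Plcb4), another brush cell gene, had 26.1 ± 6.19 CPM (SD, n = 4) against 23.5 ± 3.13 CPM, and the test did not call it (log2 fold change 0.27, adjusted p = 0.258 by edgeR).

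Phospholipase C beta 1 (Plcb1) was a brush cell gene that rose. Plcb1 had 55.4 ± 19.2 CPM against 30.6 ± 14.3 CPM (SD, n = 4 each), and its log2 fold change was 0.93 (adjusted p = 6.56e-06 by edgeR). It was higher in the gated cells of each library. The brush cell list summed to 179 to 213 CPM in the gated cells and 154 to 204 CPM in the reference, with its 2 gate genes left out. Over all genes tested and outside the gate, 9.56% were called higher and 11.1% lower in this comparison. Because most of these markers were absent or not called higher than in the full reference, the cells are named here by their gate and not as brush cells.

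**Figure D1:**
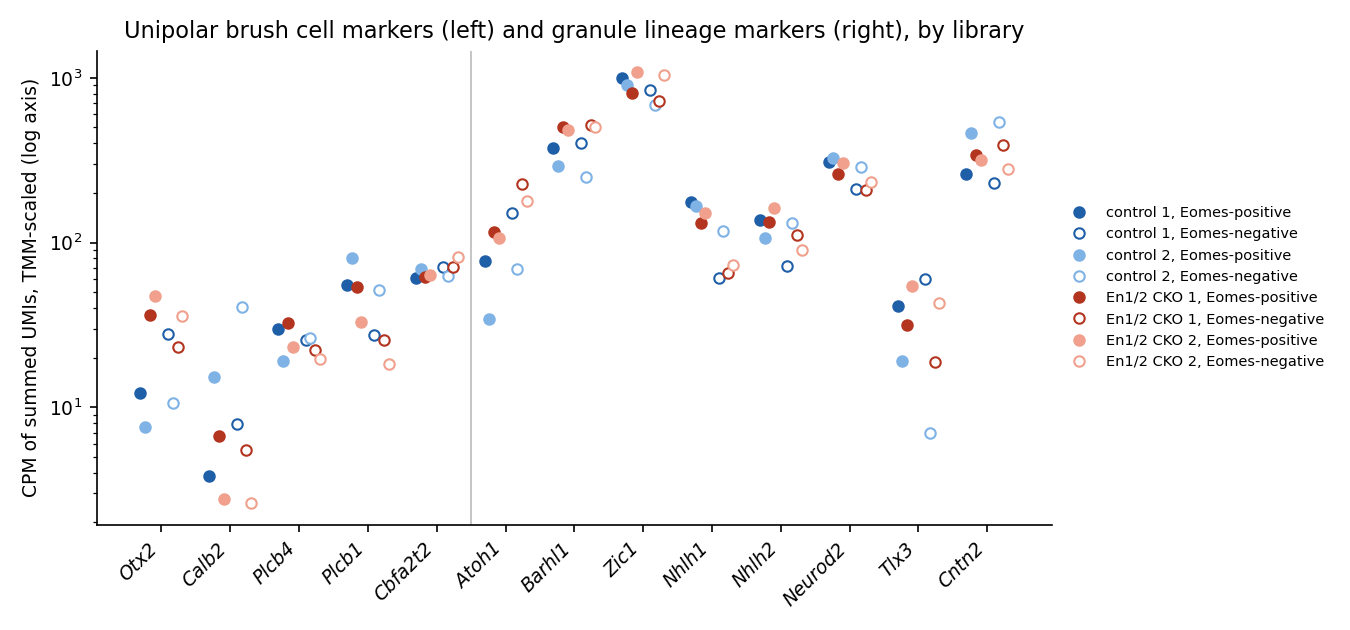
CPM of 5 unipolar brush cell markers (left of the line) and 8 granule lineage or precursor markers (right) in each library, on a log axis. Filled points are the gated Eomes-positive cells and open points the Eomes-negative reference cells. Otx2 and Calb2 overlap between the classes, Plcb1 is higher in the gated cells of each library, and Barhl1 and Zic1 are high in both.

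Genes of the granule lineage were abundant in the gated cells. Pax6, a paired-box gene of granule cell precursors, stood at 937, 1005, 922 and 993 CPM in the gated cells and at 794, 874, 610.4 and 773 CPM in the reference; every reference cell held it by choice, and 43 gated cells did not. Zic1, a zinc finger gene of the same lineage, had 996, 906, 814 and 1083 CPM against 839.7, 689.5, 725 and 1045 CPM, a small rise seen in all 4 libraries (log2 fold change 0.20, SE 0.06, adjusted p = 0.0155 by edgeR) that no longer passed without control replicate 1 (0.18, adjusted p = 0.0903) or without control replicate 2 (0.15, adjusted p = 0.0505). Barhl1, a homeobox gene of rhombic lip derivatives, was level, with 413 ± 98.1 CPM against 418 ± 123 CPM (SD, n = 4 each; log2 fold change -0.03, adjusted p = 0.767). So the gated cells and the reference shared these 3 genes at similar levels.

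Nhlh1 and Nhlh2, basic helix-loop-helix genes of newly formed neurons, were both higher. Nhlh1 had 176, 168, 131 and 151 CPM in the gated cells and 61.3, 118, 64.9 and 72.5 CPM in the reference, with no overlap between the classes (log2 fold change 1.11, SE 0.10, adjusted p = 1.05e-08 by edgeR). Nhlh2 had 135 ± 22.7 against 101 ± 25.7 CPM (log2 fold change 0.60, adjusted p = 0.000356), and was lower in the gated cells of control replicate 2. Neurod2 rose too (log2 fold change 0.40, adjusted p = 0.000121). Of 17 granule lineage genes tested, 7 rose (Neurod2, Zic1, Zic2, Nhlh1, Nhlh2, Pde1c and Rbfox3), Atoh1 was among those that fell and 8 were not called; the median log2 fold change was 0.11, beside 0.0024 for all genes tested. Among deep cells with the gate's limits in both classes and Neurod1 held low, a comparison described below, 1 of 16 rose (Pde1c) and 1 fell (Atoh1).

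Atoh1, which marks dividing precursors, was lower. It stood at 77.2, 34.3, 116 and 107 CPM in the gated cells and at 152, 68.9, 226 and 178 CPM in the reference of the same libraries. Each library had the lower value in the gated cells (log2 fold change -0.88, SE 0.09, adjusted p = 2.73e-08 by edgeR). Wls, a Wnt secretion factor of the rhombic lip, fell by 1.19 on the log2 scale (29.1 ± 9.36 against 68.8 ± 16.8 CPM, adjusted p = 5.08e-08). The progenitor genes Sox2, Nes and Notch1 fell as well, and no rhombic lip precursor gene rose (5 of 9 tested fell). The full reference had no limit on mitosis genes. Among deep cells with the gate's limits in both classes and Neurod1 held low, only Atoh1 and Wls fell of 5 tested. Without a Neurod1 limit, Atoh1, Wls and Sox2 fell of 7 tested.

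Across all genes, 1089 were higher and 1263 lower in the gated cells. The 15 named risers were the called genes with the largest change among those of 20 CPM or more that were higher in every library. Most of them were not called, or not tested, with Neurod1 held low, as given below. Slc17a7, the vesicular glutamate transporter of mature granule and brush cells, led them with 22.2, 30.5, 21.1 and 12.1 CPM against 6.06, 8.73, 4.69 and 5.82 CPM (log2 fold change 1.67, SE 0.24, adjusted p = 1.23e-05 by edgeR). All 4 gated values lay above all 4 reference values. The next were Lrrc55, an auxiliary subunit of potassium channels (1.46), Cystm1 (1.43), the transcription factor Mafa (1.35), the protein kinase A inhibitor Pkib (1.34) and the Cdc42 effector Cdc42ep2 (1.31), given as log2 fold changes.

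Fat2, a protocadherin of granule cells, had 52.0 and 80.0 CPM in the gated cells of the controls and 18.2 and 24.2 CPM in those of the CKO libraries, against 25.3, 16.8, 5.84 and 12.6 CPM in the reference (log2 fold change 1.26, SE 0.18, adjusted p = 1.59e-05 by edgeR). The rest were the transporter gene Slc35f4 (log2 fold change 1.26), the phosphatases Ppm1h (1.24) and Ppp2r2c (1.11, a regulatory subunit), Glipr2 (1.18), the potassium channel Kcnd2 (1.16), A930017K11Rik (1.15), Nhlh1 and the metalloproteinase Mmp24 (1.10). A930017K11Rik, a transcript without a name of its own, stood at 73.8 to 91.4 CPM in the gated cells and 33.3 to 38.9 CPM in the reference.

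Neurod1 is in the gate and was itself high in the gated cells (871, 468, 646 and 870.0 CPM against 343, 317, 261 and 360.5 CPM), since a cell with 2 Eomes UMIs could hold any amount of it. The comparison was therefore repeated among cells with 3000 or more UMIs in 2 ways that put the same limits on both classes. They differ in the Neurod1 limit and in the Eomes count asked of gated cells, and both were chosen after seeing the data. Neurod1 still stood higher in the gated cells in both. Its log2 fold change was 0.66 with the limit and 1.33 without it, beside 1.20 against the full reference. With Neurod1 at 2 UMIs or fewer in both, 126 genes were higher and 120 lower (1.71% and 1.63% of 7348 tested). With 2 or more Eomes UMIs in the gated cells and no Neurod1 limit in either class, 619 were higher and 532 lower (6.65% and 5.71% of 9310). That setting had 63, 12, 45 and 90 gated cells (controls first), and the one with the limit 54, 24, 33 and 46. Without the limit the gated medians were 14413, 4281, 17492 and 13792.5 UMIs, against 4578.5, 4273.5, 12580 and 11245 in the reference. With it they were 5033, 3883, 5179 and 10881.5 against 4451.5, 4093, 7582 and 10154. Of the 7347 genes tested in all 3 comparisons, 89 were called higher in each and 89 lower in each, 1.21% in each direction.

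Among the 89 higher in each were genes of growing axons and young neurons. Gap43, a growth cone protein, had 2463, 1283, 2576 and 3063 CPM in the gated cells and 1127, 1028, 1107 and 1424 CPM in the reference (log2 fold change 0.99, SE 0.08, adjusted p = 2.54e-09 by edgeR). Control replicate 2 had the lowest gated value, and it lay below 1 reference value. Its log2 fold change was 0.92 with Neurod1 held low and 0.87 with no Neurod1 limit. Stmn2, a microtubule regulator of axons, had 2758, 2434, 3453 and 3319 CPM against 1385, 1872, 1712 and 1674 CPM, with no overlap (log2 fold change 0.87, then 0.69 and 0.84 in the same order).

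Dcx, Tubb3 and Cplx2, a microtubule protein, a neuronal tubulin and a synaptic release factor, were also among the 89, with log2 fold changes of 0.69, 0.52 and 0.82. Reln, the secreted guidance protein of the granule lineage, stood at 675 ± 104 against 459.6 ± 91.1 CPM (SD, n = 4 each; log2 fold change 0.55, adjusted p = 1.51e-07 by edgeR). The same group held Ppm1h, Ppp2r2c, A930017K11Rik, the Wnt modulator Sfrp1 (1.30), the synaptic organizer Cbln2 (1.01), Cadps2 of dense-core vesicles (0.99) and Jun (0.73). Nhlh1 was not among them: its log2 fold change was 0.23 (adjusted p = 0.721) with Neurod1 held low and 1.08 (adjusted p = 1.11e-22) with no Neurod1 limit. Plcb1 behaved likewise, at 0.36 (adjusted p = 0.698 by edgeR) and 0.87 (adjusted p = 1.88e-05 by edgeR). The Eomes count, depth and number of cells differ between these settings too, so the part of Neurod1 in these contrasts was not tested. Of the 15 named risers, only Ppm1h, Ppp2r2c and A930017K11Rik were among the 89. With Neurod1 held low, Fat2 (adjusted p = 0.189), Slc35f4 (adjusted p = 0.157) and Mmp24 (adjusted p = 0.0951) were not called by edgeR either. Slc17a7, Lrrc55, Cystm1, Mafa, Pkib, Cdc42ep2, Glipr2 and Kcnd2 did not pass the low-count filter there. All 15 were called with no Neurod1 limit.

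**Figure D2:**
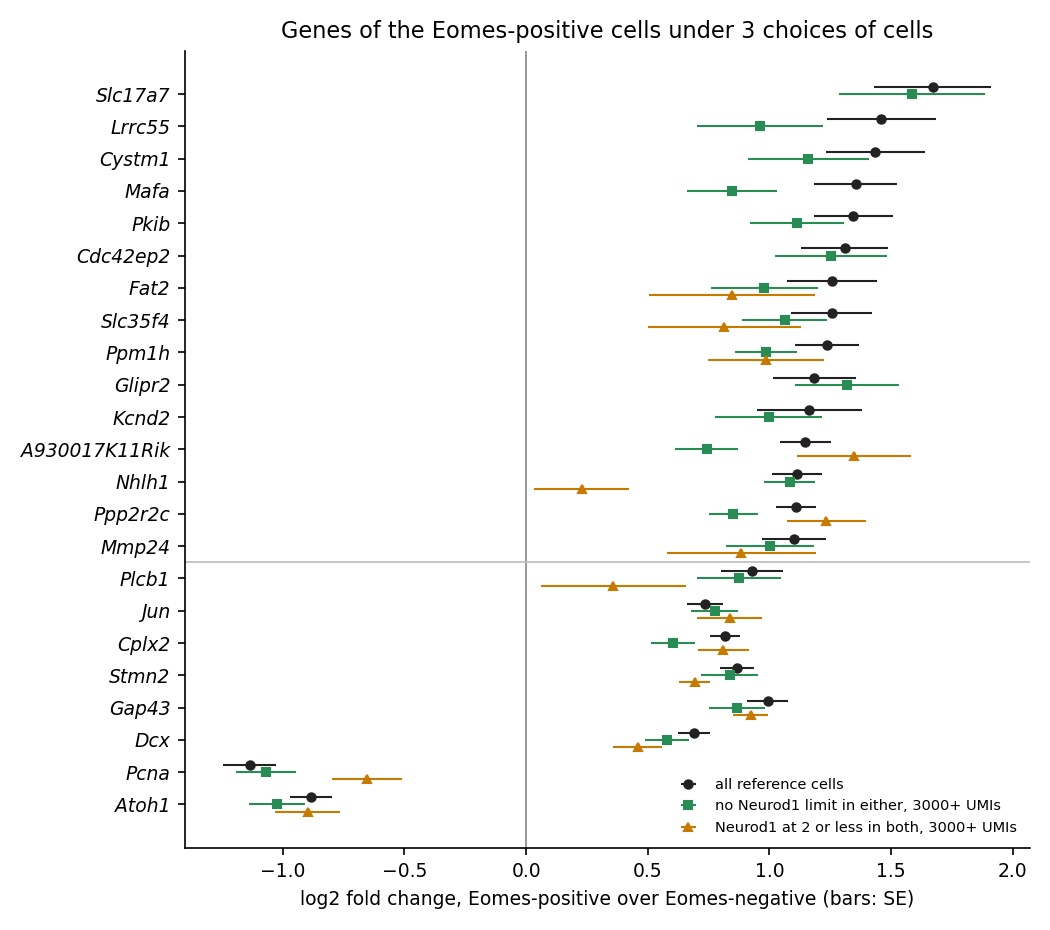
Log2 fold change of the gated cells over the reference, with SE, for the 15 named risers (above the line) and 8 other genes, in 3 choices of cells. Gap43, Stmn2, Cplx2, Dcx and Jun are above 0 and Pcna and Atoh1 below 0 in all 3, while Nhlh1 is near 0.23 where Neurod1 was held low in both classes. A missing point is a gene that did not pass the filter on low counts.

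Lower in each of the 3 comparisons were Atoh1, Wls and the DNA replication genes Pcna, Mcm5, Mcm6, Mcm7 and Rrm2. Atoh1 had log2 fold changes of -0.88, -0.90 and -1.02 in the order above. Fst, the activin antagonist follistatin, fell by 1.59 on the log2 scale, from 178 ± 39.2 CPM in the reference to 55.6 ± 25.8 CPM (SD, n = 4 each, adjusted p = 2.57e-10 by edgeR). Gadd45g, a gene of cells about to leave the cycle, fell by 1.66 (35.4 ± 9.48 against 118 ± 39.9 CPM), and Hes6 by 0.38. For all of these but Mcm5 the gated value was below the reference value in every library; Mcm5 in control replicate 2 was at 38.1 against 29.8 CPM.

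Fewer genes were called when each cell was thinned to 2000 UMIs, shallower cells were left out and the gate and reference were chosen again on the thinned counts. Then 94, 48, 44 and 76 gated cells remained and 27 genes were called higher and 72 lower. Gap43 kept a log2 fold change of 0.31 (adjusted p = 0.00589), Stmn2 of 0.29 (adjusted p = 0.0033) and Dcx of 0.47 (adjusted p = 0.00254). The values for Ppm1h (0.51), Ppp2r2c (0.28), Nhlh1 (0.36) and Atoh1 (-0.33) no longer passed. Depth, the number of cells and the membership of both classes change together in this setting, and their parts were not tested.

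Promoters of 3 genes are printed because they show the E-box letters that were searched and the gene that defines the cells. They are the 250 bases before the RefSeq start site (GRCm38.p6), read along the gene's strand, with E-boxes in capitals. The E-box forms searched were CAGATG and CAGCTG, the letters that Atoh1, Neurod and Nhlh proteins are known to bind, and the T-box form was AGGTGTGA, on both strands.
Eomes, chr9:118477939-118478188, plus strand: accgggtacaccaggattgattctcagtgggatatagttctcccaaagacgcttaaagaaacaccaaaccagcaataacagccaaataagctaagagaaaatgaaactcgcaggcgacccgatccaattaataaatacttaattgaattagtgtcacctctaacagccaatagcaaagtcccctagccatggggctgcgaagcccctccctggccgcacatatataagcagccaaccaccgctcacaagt
Nhlh1, chr1:172057597-172057846, minus strand: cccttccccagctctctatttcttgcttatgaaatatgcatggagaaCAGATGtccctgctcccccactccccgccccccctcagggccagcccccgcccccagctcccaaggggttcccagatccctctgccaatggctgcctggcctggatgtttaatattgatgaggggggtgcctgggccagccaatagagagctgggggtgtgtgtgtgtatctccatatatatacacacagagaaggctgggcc
Ppm1h, chr10:122678512-122678761, plus strand: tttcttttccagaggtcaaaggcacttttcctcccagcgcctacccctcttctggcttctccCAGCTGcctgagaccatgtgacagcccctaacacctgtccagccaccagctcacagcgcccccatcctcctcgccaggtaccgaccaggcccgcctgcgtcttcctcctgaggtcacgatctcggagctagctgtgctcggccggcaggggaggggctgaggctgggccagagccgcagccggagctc
The CAGATG of Nhlh1 begins 203 bases and the CAGCTG of Ppm1h 188 bases before the start, and the Eomes window holds none of the 3 motifs. Of the 15 named risers, 13 were found in the table; 4 of these (Nhlh1, Ppm1h, Glipr2 and Cdc42ep2) held an E-box, against 25.3% of 27025 promoters of the same length, and none held the T-box letters, against 1.14%. These counts describe letters and were not tested.

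Cell cycle genes outside the gate were far lower in the gated cells. All 18 tested G2 and M phase genes fell, and their sum was 119 to 232 CPM against 1428 to 2590.0 CPM. The 10 named genes that fell most were Kif2c, Bub1b, Nusap1, Hmmr, Melk, Aspm, Kif23, Bub1, Aurkb and Pbk, all of mitosis; Kif2c, a kinesin, had 0.764, 0, 0 and 1.10 CPM against 35.4, 23.1, 46.9 and 38.3 CPM. The gate limited 6 other mitosis genes and the reference had no such limit, so these falls are a description. Mki67, the proliferation antigen, fell by 3.88 on the log2 scale, and by 0.17 (adjusted p = 0.895) among deep cells with all limits in both classes and Neurod1 held low.

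S phase genes, which the gate did not use, were lower too. All 20 fell against the full reference, and 9 of 19 tested did where both classes had the same limits and Neurod1 was held low, with a median log2 fold change of -0.70. Without a Neurod1 limit it was 19 of 20, with a median of -1.05. Pcna, the sliding clamp of DNA replication, stood at 70.3, 76.2, 57.5 and 95 CPM in the gated cells and at 167, 132, 179.9 and 169 CPM in the reference. Every gated value lay below every reference value, and the 3 log2 fold changes were -1.14, -0.65 and -1.07.

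Of 16 tested genes of cell cycle exit and early neurons, 8 rose (Cdkn1a, Btg1, Btg2, Elavl4, Dcx, Tubb3, Stmn2 and Sox4) and 4 fell (Cdkn1c, Gadd45g, Hes6 and Dll1). Guidance, migration and adhesion genes were split, with 7 of 24 higher, among them the netrin receptors Unc5c (558 ± 39.2 against 446 ± 53.3 CPM) and Dcc, and 5 lower. The log2 fold change of Unc5c was 0.33, and it was -0.042 (adjusted p = 0.742 by edgeR) against the reference under the gate's limits. Among deep cells with the same limits in both classes and Neurod1 held low, it was 0.32 (adjusted p = 0.0163 by edgeR). Without a Neurod1 limit in either class, it was 0.18 (adjusted p = 0.233 by edgeR). Cxcr4, the chemokine receptor of migrating precursors, had 80.5 ± 17.2 against 131 ± 12.9 CPM (log2 fold change -0.78, adjusted p = 1.65e-06 by edgeR), and Robo3, a receptor of crossing axons, fell by 0.89. Among deep cells with the same limits in both classes, Cxcr4 was at -0.41 (adjusted p = 0.0814 by edgeR) with Neurod1 held low. With no Neurod1 limit it was at -1.02 (adjusted p = 4.13e-13 by edgeR). Of the guidance list, 2 of 19 rose and 0 fell in the former setting, and 3 of 20 rose and 3 fell in the latter. Among glutamate signalling genes the transporter Slc17a7, the receptor subunits Gria2 and Grik2 and Plcb1 rose, and the receptor subunit Gria4 and the calcium release channel Itpr1 fell. Among genes of the hedgehog, BMP, Wnt and TGF-beta responses none of 13 rose and 5 fell (Id1, Lef1, Tcf7l2, Nkd1 and Wls), with a median log2 fold change of -0.23.

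Markers of other cell types were mixed. The 16 summed cerebellar nuclei genes stood at 876, 1287, 916 and 849 CPM in the gated cells and at 1010.2, 1666, 1148 and 902 CPM in the reference. Of 16 cerebellar nuclei genes 5 fell (Lhx2, Lhx9, Pou3f2, Zfhx3 and Col25a1), none rose and 11 were not called. The gate left out cells with a Tbr1 UMI or with Meis2 above Pax6 and the reference did not, so these falls are a description. Among deep cells with the limits in both classes and Neurod1 held low, 1 of 8 fell (Pou3f2) and none rose. Without a Neurod1 limit, 1 of 11 fell (Pou3f2) and 1 rose (Slc17a6). Lhx9 had a log2 fold change of -0.52 against the full reference. Against deep reference cells under the gate's limits it was 0.10 (adjusted p = 0.753 by edgeR). Among GABAergic genes Lhx1 rose (0.84); the list summed to 111, 122, 27.8 and 30.2 CPM against 62.1, 75.0, 30.5 and 34.7 CPM, higher in the gated cells of both controls and lower in those of both CKO libraries. Lhx1 alone made up most of that sum in the gated cells of each library. Of the 11 listed genes, only Gad1 and Ptf1a were at 0 in the gated cells of every library. Neurod6, the only forebrain marker tested, rose by 0.47, with Emx1 and Emx2 at 0. Haemoglobin genes fell (3 of 3), and summed with the other erythroid genes to 20.6, 708, 16.3 and 2.20 CPM in the gated cells. Slc1a3 and Fabp7 fell among 4 glial and vessel genes, whose list summed to 115 to 155 CPM, with Col1a1, Pdgfrb, Csf1r and Cx3cr1 at 0.

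Genes of the dissociation response were higher beside these changes: 5 of 8 rose (Jun, Junb, Jund, Ier2 and Dusp1) and none fell, with summed levels of 1339, 864, 1648 and 1207 CPM against 861, 671, 1301 and 894 CPM. Of 9 p53 targets 3 rose (Cdkn1a, Trp53inp1 and Bbc3). With Neurod1 held low among deep cells, 1 of 7 dissociation genes (Jun) rose and the median log2 fold change of 6 p53 targets was -0.05, beside 0.52 against the full reference. The gated cells had slightly fewer mitochondrial UMIs in 3 of 4 libraries, with medians of 5.02%, 5.61%, 3.18% and 2.44% against 5.83%, 5.59%, 3.58% and 2.66%. The part of these in the other differences was not tested.

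The gated cells differed among themselves in Eomes and Neurod1. Of the 568, 326 held 1 Eomes UMI, 138 held 2 and 104 held 3 or more. Neurod1 stood at 205, 293, 144 and 117 CPM in those with 1 Eomes UMI, which could hold at most 2 Neurod1 UMIs, and at 1407, 882, 863 and 924 CPM in those with 3 or more; the gate fixes this contrast. Nhlh1, which has no limit of its own, was at 97.6, 177, 51.6 and 54.2 CPM with 1 Eomes UMI and at 249, 272, 141 and 190.3 CPM with 3 or more, higher in each library. Control replicate 2 had only 3 cells with 3 or more Eomes UMIs. Nhlh1 also stood at 86.9, 167, 65.5 and 54.2 CPM in gated cells with Neurod1 at 2 or less. With Neurod1 above 2 it was at 240, 214, 153 and 182 CPM. Because the gate limits Neurod1 in cells with 1 Eomes UMI, the Nhlh1 contrast is not free of the gate. Median depth rose with the Eomes count, from 2292 to 17847 UMIs in control replicate 1, so these levels are descriptions.

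Atoh1 and Neurod1 were found together in 136 gated cells, Atoh1 alone in 29, Neurod1 alone in 242 and neither in 161. Cells with an Atoh1 UMI had Otx2 at 17.0, 0, 51.1 and 67.5 CPM, and those without one at 9.16, 9.09, 9.5 and 14.7 CPM. The first class was higher in 3 libraries, and its 6 cells in control replicate 2 had no Otx2 UMI. It was also deeper in every library, with medians of 8775.5, 4012.5, 16924.5 and 12807 UMIs against 2809.5, 2004, 4135 and 3562.5. Conversely, the 70 Otx2-positive cells (12 and 2 in control, 17 and 39 in CKO libraries) had Atoh1 at 114, 0, 198 and 163 CPM, beside 73.9, 36.1, 82.3 and 72.9 CPM in the Otx2-negative ones. Their medians of 8394.5, 1903.5, 17906 and 13718 UMIs were above those of the Otx2-negative cells except in control replicate 2. No test was run, because control replicate 2 had too few cells.

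The gate kept 36.1% of the Eomes-positive cells. Among those just outside it, 255 missed only through Neurod1 above 2 with 1 Eomes UMI, 235 only through mitosis genes, 138 only through Meis2 above Pax6, 39 only through an Lmx1a UMI and 23 only through a Tbr1 UMI, while 314 missed 2 or more limits. The 138 with Meis2 above Pax6 had Meis2, a gene of nuclei neurons, at 839.6 to 1631 CPM (not TMM-scaled, as are the values below); 88 of them were in control replicate 2. The 139 Eomes-positive cells with an Lmx1a UMI, whatever their other limits, had Calb2 at 68.4, 95.4, 34.6 and 0 CPM and Otx2 at 68.4, 10.6, 61.4 and 159 CPM. In the gated cells the same measure gave 3.86, 15.8, 6.44 and 2.61 CPM of Calb2 and 12.4, 7.90, 35.0 and 45 CPM of Otx2. Calb2 was thus higher beside Lmx1a in 3 of 4 libraries and Otx2 in all 4, and the gate leaves those cells out. These counts rest on 66 Calb2 and 122 Otx2 UMIs, and Otx2 in control replicate 2 on 2 UMIs in each class. The 39 cells left out only by an Lmx1a UMI held 1 Calb2 UMI and 41 Otx2 UMIs. Their Otx2 was at 0 in control replicate 2. Most of the Calb2 beside Lmx1a thus lay in cells that also missed another limit.

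A single Eomes UMI may be weak evidence in a cell, which the counts here cannot settle. Among 50 kept GABAergic-like cells (3 or more UMIs of that neuron type's genes, median 3599 UMIs) 1 held an Eomes UMI (2.00%, 95% Wilson interval 0.354% to 10.5%). Among 17 haemoglobin-rich cells (median 5310 UMIs) 1 did (5.88%, 95% Wilson interval 1.05% to 27.0%). Both intervals include the 8.29% found in 3764 kept cells of 2000 to under 4000 UMIs. The share of kept cells with an Eomes UMI rose with depth, from 4.73% to 7.02% across the libraries at 1000 to under 2000 UMIs to 15.9% to 33.8% at 8000 or more. The intervals cover counting error only.

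Gated cells made up 6.73% and 2.26% of the kept cells in control replicates 1 and 2, and 4.88% and 5.00% in CKO replicates 1 and 2. The 95% Wilson intervals were 5.88% to 7.70%, 1.84% to 2.78%, 4.02% to 5.91% and 4.35% to 5.75%. Both CKO libraries lay between the controls, which differed from each other more than the groups did. The CKO mean was 0.445 percentage points above the control mean (4.94% ± 0.0857 against 4.50% ± 3.16, SD, n = 2 each; two-sided exact permutation p = 1, smallest possible 0.33). As a share of cells with a Pax6 UMI, the difference was -0.183 points, and after thinning to 2000 UMIs it was -0.653 points. Without control replicate 2 it was -1.79 points, and without control replicate 1 it was 2.68 points.

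**Figure D3:**
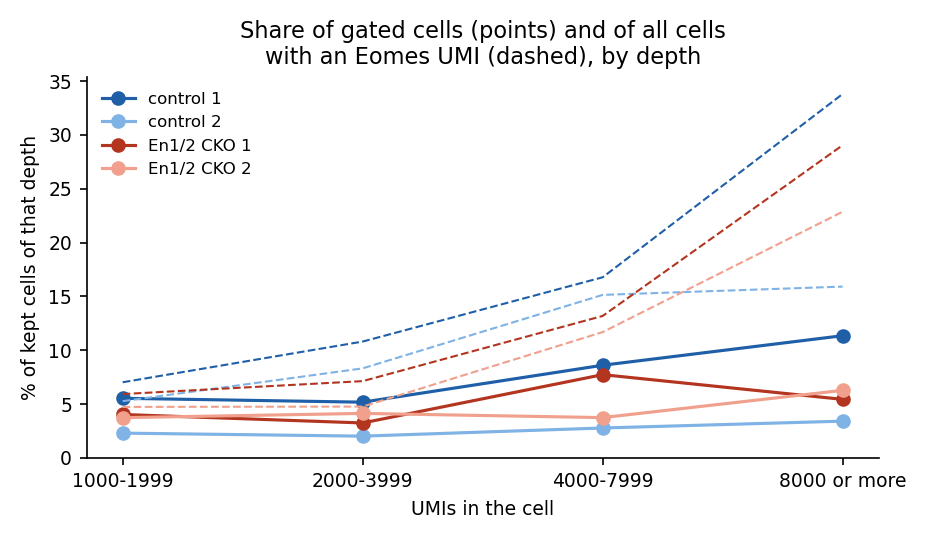
Percent of kept cells that met the gate (points and solid lines) or held any Eomes UMI (dashed lines), by UMIs in the cell, in each library. The dashed lines rise from 4.73% to 7.02% in the shallowest cells to 15.9% to 33.8% in the deepest, and control 2 has the lowest gated share at each depth.

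Few genes were called between CKO and control within the gated cells. En2, a targeted gene, had 129 and 160.0 CPM in control and 23.0 and 19.2 CPM in CKO gated cells (145 ± 21.8 against 21.1 ± 2.67 CPM, SD, n = 2 each). The groups were far apart, and the log2 fold change was -2.77 with an SE of 0.28 (adjusted p = 0.000608 by edgeR's quasi-likelihood test). En1, the other target, had 344 and 347 CPM in control and 97.8 and 196 CPM in CKO gated cells. Its groups did not overlap either, a state it shared with the 20.4% of genes whose CKO values both lay below the controls (23% both lay above), but it did not pass (log2 fold change -1.23, SE 0.30, adjusted p = 0.148), and did among cells with 3000 or more UMIs (-1.46, adjusted p = 0.0224). The sources used here do not say which exons lie between the lox sites, and reads from the 3′ end outside them would remain.

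Of 9424 genes tested outside the gate, 1 rose (0.0106%) and 5 fell (0.0531%). Lhx1, a LIM homeobox gene of GABAergic and nuclei neurons, had 90.2 and 95.2 CPM in the gated control cells and 17.3 and 15.4 CPM in the CKO cells. The CKO values were well below both controls (log2 fold change -2.52, SE 0.29, adjusted p = 0.00143 by edgeR). Nrxn3, the presynaptic adhesion protein neurexin 3, fell from 113 and 168 CPM to 31.6 and 26.9 CPM (-2.22, SE 0.29, adjusted p = 0.00453). Ephb1, a receptor for ephrin B ligands, went from 68.0 and 68.6 CPM to 21.1 and 17.6 CPM (-1.85, SE 0.30, adjusted p = 0.0327), and AC149090.1, a transcript named by its clone, from 243 and 259 CPM to 66.1 and 103 CPM (-1.56, SE 0.26, adjusted p = 0.0415).

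S100a10, a partner of annexin A2 at the membrane, was the one gene that rose. It had 9.93 and 11.4 CPM in control and 80.5 and 56.6 CPM in CKO gated cells (log2 fold change 2.70, SE 0.38, adjusted p = 0.00813 by edgeR). Otx2 did not pass, at 9.92 ± 3.26 CPM in control against 41.8 ± 7.64 CPM in CKO (SD, n = 2 each), where the log2 fold change was 1.89 (adjusted p = 0.0776 by edgeR), and passed among cells with 3000 or more UMIs (2.19, adjusted p = 0.0342). Eomes itself, which chose the cells, had 343 ± 118 CPM in control and 189 ± 11.3 CPM in the deeper CKO cells.

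Among the other lists no gene was called in this comparison: none of 16 granule lineage, 7 rhombic lip, 11 cerebellar nuclei, 19 S phase, 14 glutamate signalling, 8 dissociation and 8 p53 genes. The same held for 5 brush cell genes and 20 guidance genes, and Lhx1 was the one call among the 16 lists. At an unadjusted p under 0.05 there were 812 genes. The number of calls turned on single libraries: it was 0 without CKO replicate 1, 76 without CKO replicate 2, 28 without control replicate 1 and 6 without control replicate 2. With DESeq2 it was 13, with 3000 or more UMIs 29 (0.0547% of genes higher and 0.263% lower, including all 6 above), and with cells thinned to 2000 UMIs 0.

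**Figure D4:**
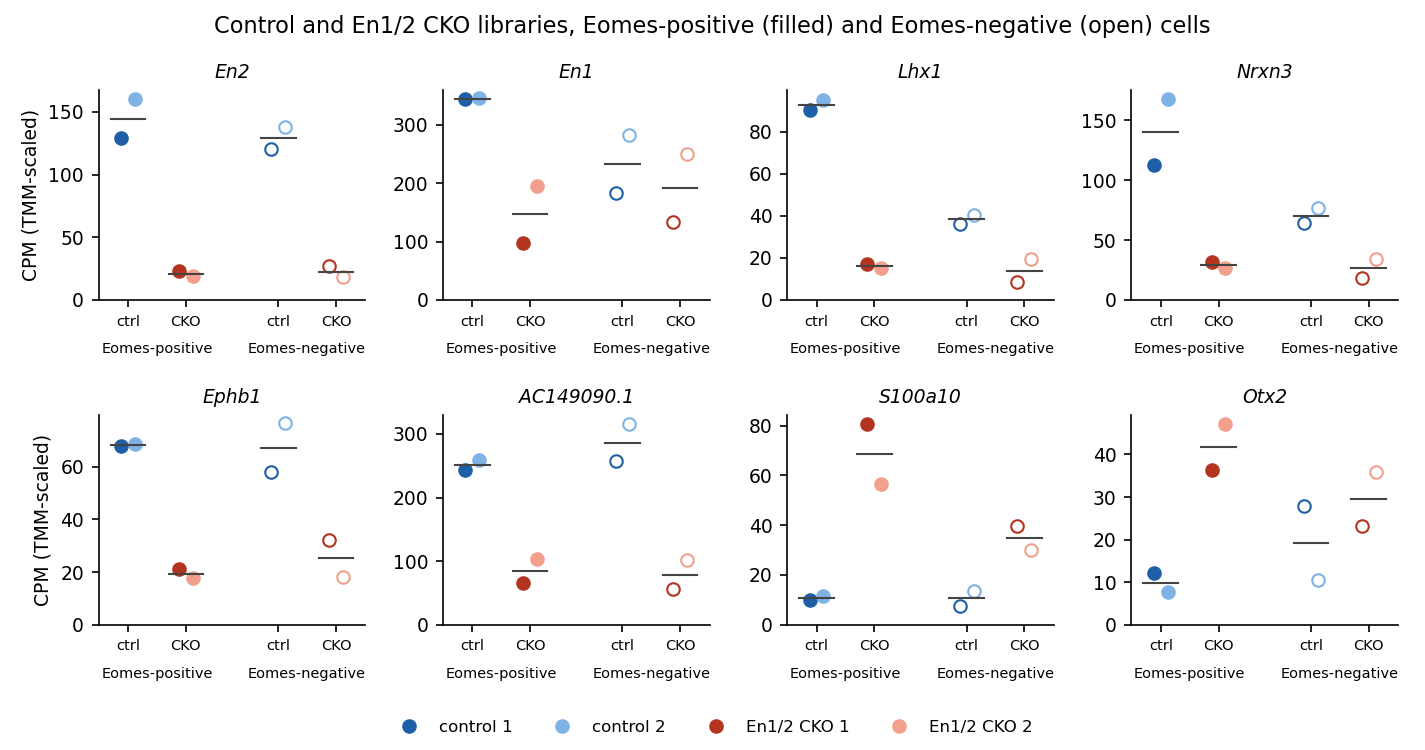
CPM of 8 genes in each library, in the gated Eomes-positive cells (filled) and in the Eomes-negative reference cells (open); short lines are means of 2 libraries and each axis starts at 0. En2, Lhx1, Nrxn3, Ephb1 and AC149090.1 are lower and S100a10 higher in both CKO libraries in both classes, while En1 and Otx2 overlap between the groups in the reference.

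The genes called in the gated cells differed the same way in the reference cells of both CKO libraries. Lhx1 stood at 36.3 and 40.5 CPM in the control reference and at 8.73 and 19.3 CPM in the CKO reference, and the difference of the CKO effect between the classes was -1.19 on the log2 scale (adjusted p = 0.483 by edgeR's test of the interaction). It was -0.87 for Nrxn3 (adjusted p = 0.838), 0.74 for S100a10 and -0.19 for En2 (adjusted p = 1 for both), and 1.59 for Otx2 (adjusted p = 0.198). The call for Otx2 depended on the cells: with the reference under the gate's limits the difference was 2.18 (adjusted p = 0.0122). In the reference Otx2 overlapped between the groups.

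Of 12059 genes tested for a different CKO effect, 5 were called (0.0415%, each more negative in the gated cells): En1 and 4 haemoglobin genes. En1 had 184 and 283 CPM in the control reference and 133 and 249.9 CPM in the CKO reference, which overlap, against no overlap in the gated cells. The difference of its CKO effect was -1.08 on the log2 scale (SE 0.17, adjusted p = 0.00478 by edgeR). Without control replicate 1, which had the lower En1 of the controls in the reference, it was -0.62 (adjusted p = 0.188), and with DESeq2 -1.04 (adjusted p = 0.11). Control gated cells had more En1 than control reference cells in both libraries, and CKO gated cells had less than CKO reference cells in both.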

How the data were processed

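The deposited values are raw UMI counts per gene and cell barcode, which the authors made with Cell Ranger 5.0.0 on mm10, per the submitters' processing notes. The counts were not normalized; no cell annotation was used. Barcodes were kept with at least 500 genes, 1000 UMIs and at most 10% mitochondrial UMIs. UMIs were summed per library and class, so that libraries are the replicates, and edgeR 4.0.16 in R 4.3.3 gave a quasi-likelihood F test per gene after filterByExpr and TMM scaling. P-values are two-sided and Benjamini-Hochberg adjusted over all genes in the test, and a gene is called under 0.05. Each SE was taken as the size of the log2 fold change divided by F's square root. The gated cells and the reference were compared with the library as block, control and CKO without one, and their difference by an interaction term. Alternatives were DESeq2 1.42.0, no low-count filter, deeper, thinned, doublet-free or low-mitochondrial cells, other gates and references, and each library left out.

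The members and gene lists were chosen with earlier results of these data known. Named genes are a fixed list of 28 and, per test, called genes of 20 CPM or more with the largest change in the same direction in every library (up to 15 higher and 10 lower, or 8 each way for the knockout). That rule skipped gate genes and genes of the sex chromosomes, mitochondria and haemoglobin; Otx2, Calb2 and others outside it were named after their values were seen where they are not on the list. Of 32285 gene IDs, 32158 were found in GENCODE M21. Library totals were 14998150 to 33709450 UMIs. Tested on simulated data, the first comparison recovered 88% of genes changed 2-fold and 98% changed 4-fold (11401 genes), the knockout comparison 25% and 85% (9431 genes) and the interaction 41% and 79% (12071 genes). Each simulation gave all genes the same dispersion, and each unchanged gene the same level in every library and class. Recovery in the data may therefore be lower. Whether the replicate numbers pair the libraries is not stated in the labels. A few genes of the lists are not reported here.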

Additional observations from a re-analysis of the deposited data

Results flagged for a closer look

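En1 and 4 haemoglobin genes differed in their CKO effect between the gated Eomes-positive cells and the Eomes-negative reference cells, by edgeR's test of the interaction with the library as block. For En1 the difference was -1.08 on the log2 scale (adjusted p = 0.00478). The haemoglobin genes had larger differences, of -5.97 for Hbb-bs (adjusted p = 0.000721), -5.52 for Hbb-y and -5.59 for Hba-a1 (adjusted p = 8.75e-08 for both) and -11.0 for Hba-x (adjusted p = 1.69e-05). Hbb-y, the embryonic beta-like globin, had 12 and 105 UMIs in the gated cells of control replicates 1 and 2 and 8 and 1 in those of CKO replicates 1 and 2, against 134, 3277, 8762 and 2 in the reference. CKO replicate 1 alone had a high reference value beside a low gated one. Hba-x was at 0 UMIs in the gated cells of both CKO libraries and at 1344 and 0 in their reference cells, so its fitted value is no measure of size. Without CKO replicate 1 the difference was 3.24 for Hbb-y and 0.028 for Hba-x (adjusted p = 1 for both). Haemoglobin is red cell RNA, and its part in the other results was not tested.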

How the results depend on the processing

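The number of genes called between gated and reference cells was 2352, and moved to 1343 with DESeq2, 99 with cells thinned to 2000 UMIs, 156 with Neurod1 at 2 or fewer in both classes and 246 with that limit among cells of 3000 or more UMIs. It was 1151 with 2 or more Eomes UMIs, no Neurod1 limit and 3000 or more UMIs, and 1418 to 2547 with 1 library left out. Named genes whose direction turned were Otx2 (-0.0048 with DESeq2, -0.05 without CKO replicate 1, -0.15 without CKO replicate 2, and -0.15 to 0.45 over the 4 libraries left out), Barhl1 (0.0080 with the reference under the gate's limits, 0.0079 with Neurod1 held low, 0.16 thinned) and Unc5c (-0.042 with the reference under the gate's limits, -0.054 with no Neurod1 limit). Lhx9 came to 0.10 against the deep reference under the gate's limits, 0.069 and 0.21 with no Neurod1 limit (all and deep cells) and 0.0052 and 0.032 with Neurod1 held low, Glipr2 to -0.87 and Plcb4 to -0.28 thinned. None of these passed there. The limits on Neurod1, and the deep reference under the gate's limits, were chosen after seeing the data. Of 40 called named genes, 8 kept direction and call under every alternative.

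Calls for the knockout in the gated cells went from 6 to 3 with the replicate block, 29 with 3000 or more UMIs, 13 with DESeq2, 13 with at most 5% mitochondrial UMIs, 115 with no low-count filter, 0 thinned (221 at an unadjusted p under 0.05 by edgeR) and 0 to 76 with 1 library left out. The deviations of same-numbered libraries correlated at -0.0825. With 2 libraries a group this is a single correlation, and it cannot tell whether the replicate numbers pair the libraries. The 5 calls for the difference between the classes became 10 with 3000 or more UMIs, 0 with DESeq2 (94 at an unadjusted p under 0.05), 9 with 2 or more Eomes UMIs, 19 with the reference under the gate's limits, 19 with that and 3000 or more UMIs, 9 at 5% mitochondrial UMIs, 10 without doublets, 22 with no filter, 8 with Pax6-positive gated cells and 8 to 45 with 1 library left out, where Hbb-y ranged from -5.72 to 3.24 and Hba-x from -12.0 to 0.028. The difference in share, 0.445 points, reversed to -0.183 over Pax6-positive cells and -0.653 thinned, and ranged from -1.79 to 2.68 with 1 library left out. A test of Otx2-positive against Otx2-negative gated cells, with its alternatives, was not run, since 1 library had 2 such cells. The cause of these changes was not tested, other than fewer cells or genes by construction. Depth limits the Eomes gate itself.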
